A study of Homo sapiens with 8 samples.

Results

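MSP1 is a mesenchymal subpopulation of HMLE, an established human mammary epithelial line that was immortalized in culture, and CD24hi is the fraction of the same line sorted as CD24-positive. The comparison of MSP1 with CD24hi took the 4 arrays of these groups, labelled a and b in each, out of 8 in the series, and all 54613 probe sets other than controls. The other 4 arrays held MSP2 and MSP3, a pair of further mesenchymal subpopulations with 2 arrays each, and were used to separate what MSP1 shares with them from what it does not. All cells were grown in MEGM, a serum-free mammary epithelial medium, and total RNA was hybridised to single-colour Affymetrix arrays. The labels do not say how the MSP cells were isolated, whether each is a clone, or whether the 2 arrays of a group were hybridised with RNA of different cultures. The p-values therefore rest on array-to-array spread alone, and that spread may be technical.

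Epithelial cells are joined by cadherin junctions, desmosomes and tight junctions, and basal mammary cells are tied to laminin by hemidesmosomes. In the epithelial-mesenchymal transition, repressors such as ZEB1, ZEB2 and TWIST1 lower these genes, splicing regulators such as ESRP1 are lost, and cells make collagens, fibrillins and other matrix proteins. Human mammary lines can hold both states side by side, and a low CD24 level marks the mesenchymal one. The comparison asked what MSP1 gained and lost against CD24hi, and which of these changes went beyond those of MSP2 and MSP3.

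Each probe set has a linear signal, scaled by the authors to the same trimmed mean on every array. The signals under 32 units, 57.6% to 60.3% of each array, were the least repeatable and are called dim. Where the lower of 2 groups was dim, a fold is the brighter group's geometric mean over 32 and reads "at least", and where both were dim no fold is given. A gene stands for its brightest named probe set. A change is the log2 difference of group means ± SE of the fit, with n = 2 arrays per group, and was called at an adjusted p under 0.05 over all probe sets. Arrays a and b were close in MSP1, where 1.31% of the 13551 probe sets of high signal differed by more than 2-fold, and furthest apart in CD24hi, with 23.5%. The fit against CD24hi used all 8 arrays with 1 shared spread per probe set. The wider spread of CD24hi was thus averaged with that of the MSP arrays. The SE and p-values against CD24hi may therefore be too small. The Bacillus control transcripts had a median of 584 on CD24hi a and 64.4 on CD24hi b, with MSP arrays between 145 and 237. Its part in the results was not tested.

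Of 54613 probe sets, 988 were called between MSP1 and CD24hi (1.81%), 423 higher (0.775%) and 565 lower (1.03%), and 7091 had an unadjusted p under 0.05. Of the 8926 genes that carried a name, 465 were called (5.21%), 181 higher (2.03%) and 284 lower (3.18%). The authors' table, the source of the names, named genes completely only over the first 14644 array positions, where 1.7% of probe sets were called. Beyond them a probe set had a name only where the authors' p-value was at or under 0.05 in all of their comparisons, and 31.9% of those 1599 were called here. Shares over named genes are therefore raised by that choice. Every list count below stands beside 2.03% of named genes called higher and 3.18% called lower. A member of a gene list counts as measured only where it carried a name, so the list counts and medians below share this limit. A gene called dim was dim on its brightest named probe set, and its probe sets without a name were not read. No probe set was called when either MSP1 array was left out, or in a fit of the 4 arrays alone, where 5882 had an unadjusted p under 0.05. Without CD24hi a 552 were called, and without CD24hi b 435.

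The labels were checked against marker genes. Luminal epithelial markers summed to 410 and 357 signal units on MSP1 a and b, against 21920 and 14630 on CD24hi a and b, and 4 of 6 measured members were called lower. The 4 include CD24, the marker of the sort, which supplied 7072 and 3443 of the CD24hi units. This part of the check was fixed by the sort. Basal markers summed to 4438 and 4562 in MSP1, against 40280 and 30290 in CD24hi, with 4 of 7 lower. The fibroblast markers summed to 26630 and 23380 in MSP1 and to 3157 and 2005 in CD24hi, with 3 of 8 higher. All 4 measured leukocyte markers, among them PTPRC (CD45), were dim in both groups, as were 4 of 5 endothelial markers, CDH5 and VWF included, and none of these was called. Only named probe sets were read, so a brighter probe set without a name would be missed. These dim signals therefore do not show that such cells were absent. Smooth muscle and pericyte markers read 1195 and 629 in MSP1 and 280 and 603 in CD24hi, mostly from ACTA2 and TAGLN, and none was called. CD24, the protein used for the sort, gave a signal of 29.6 and 16.8 on the MSP1 arrays, against 7072 and 3443 on the CD24hi arrays, at least 154-fold lower (log2 -7.79 ± 0.51, adjusted p = 0.00659). The 7 CD24 probe sets ranged from -8.86 to 1.32.

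The 12 widest falls included laminin, cadherin, integrin and keratin genes, and also secreted and signalling proteins. FGFBP1, a secreted carrier of fibroblast growth factors, read 9.71 and 21.5 on the MSP1 arrays, against 10310 and 5808 on the CD24hi arrays, at least 242-fold lower (log2 -9.07 ± 0.68, adjusted p = 0.0075). LAMA3, the alpha chain of the laminin that hemidesmosomes grip, had 14.7 and 19.4 in MSP1, against 10790 and 4160 in CD24hi, at least 209-fold lower (adjusted p = 0.00708). That bound was 130-fold without array a of CD24hi and 337-fold without its array b, and another of its 4 probe sets changed by 0.23. KRT6B, a keratin of activated epidermis, gave 15.4 and 20.5 in MSP1 and 6923 and 6394 in CD24hi, at least 208-fold lower (adjusted p = 0.00615). For each of these genes both CD24hi arrays lay far above both MSP1 arrays, which were dim. Because RNA came from whole cell populations, fewer cells of a type and less RNA per cell cannot be told apart.

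Cadherins and EPCAM followed. CDH1, which encodes E-cadherin, read 3.61 and 10.2 on the MSP1 arrays, against 6382 and 2950 on the CD24hi arrays, at least 136-fold lower (log2 -9.48 ± 1.06, adjusted p = 0.017). EPCAM, an epithelial adhesion molecule, had 10.6 and 17.6 in MSP1, against 5353 and 2628 in CD24hi, at least 117-fold lower (adjusted p = 0.0075). CDH3, P-cadherin of basal cells, gave 0.68 and 3.29 in MSP1, against 3242 and 1665 in CD24hi, at least 72.6-fold lower (adjusted p = 0.009). All 3 were dim on both MSP1 arrays. Of 30 measured genes of epithelial adhesion and junctions, 22 fell and 0 rose, with a median log2 change of -4.88, beside a median of 0.02 over all probe sets. Among the 12 members with a brightest probe set in the completely named part, 7 fell. The other 18 had names only through the authors' p-values, so the list median is not that of an unselected list. PERP, a desmosome protein, averaged 1807 in MSP1 and 7585 in CD24hi and was not called (log2 -2.07 ± 0.42, adjusted p = 0.0845).

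**Figure D1:**
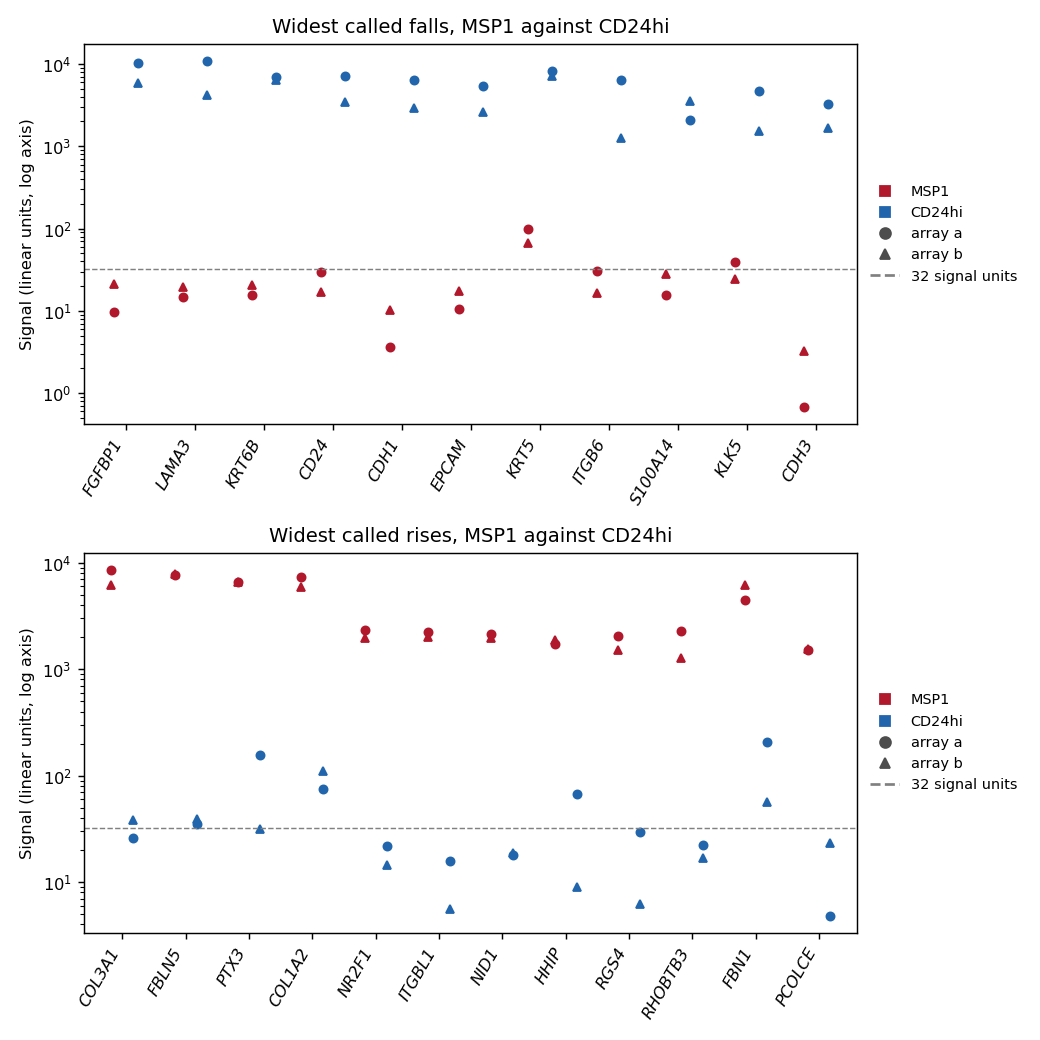
Signal (log axis, linear signal units) of 11 of the 12 widest called falls and the 12 widest called rises on each MSP1 and CD24hi array, with circles for array a, triangles for array b and a dashed line at 32 units, under which a signal is dim. Both MSP1 arrays lie below both CD24hi arrays for every gene of the upper panel and above them for every gene of the lower panel; the CD24hi arrays lie furthest apart for HHIP, ITGB6 and PTX3.

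Basal keratins and hemidesmosome genes split between near loss and persistence. KRT5, the keratin that defines basal epithelium, read 98.3 and 66.1 on the MSP1 arrays, against 8243 and 7244 on the CD24hi arrays, 95.8-fold lower (log2 -6.58 ± 0.48, adjusted p = 0.0075), and its 3 probe sets ran from -10.64 to -6.58. ITGB6, the subunit of an epithelial integrin that activates TGF-beta, had 30.4 and 16.3 in MSP1, against 6362 and 1262 in CD24hi, at least 88.5-fold lower (adjusted p = 0.0185). That bound was 39.4-fold without array a of CD24hi and 199-fold without its array b. KRT14, the partner of KRT5, averaged 2445 in MSP1 and 10480 in CD24hi and missed the threshold (log2 -2.10 ± 0.43, adjusted p = 0.0878). SFN, the epithelial 14-3-3 protein, averaged 5130 in MSP1 and 9633 in CD24hi (log2 -0.91 ± 0.35, adjusted p = 0.345). Of 16 measured members 7 fell and 0 rose, 6 of the 7 in the completely named part, with a median log2 change of -3.48. Names came only through the authors' p-values for 5 of the 16.

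Simple keratins and luminal genes held 3 falls and 0 rises among 10 measured members, beside 3.18% and 2.03% of all named genes. KRT8, a keratin of luminal cells, read 59.1 and 65.7 on the MSP1 arrays, against 1282 and 2748 on the CD24hi arrays, 30.1-fold lower (log2 -4.91 ± 0.44, adjusted p = 0.0101). ALDH1A3, which makes retinoic acid, had 31.4 and 26.3 in MSP1, against 1064 and 580 in CD24hi, at least 24.6-fold lower (adjusted p = 0.0137). KRT7, another simple keratin, averaged 74.7 in MSP1 and 97.0 in CD24hi and was not called (log2 -0.38 ± 0.34, adjusted p = 0.726). Epidermal differentiation genes and their peptidases had 8 of 17 members lower and 0 higher, with a median of -4.94, beside 3.18% of all named genes lower. Of the 17, 11 had names only through the authors' p-values, and 2 of the 8 falls lay in the completely named part. S100A14, a calcium-binding protein of epithelia, gave 15.6 and 28.2 in MSP1, against 2071 and 3564 in CD24hi, at least 84.9-fold lower (adjusted p = 0.0075). KLK5, a peptidase of shedding skin, had 39.6 and 24.3 in MSP1, against 4685 and 1545 in CD24hi, at least 84.1-fold lower (adjusted p = 0.0475), or 48.3-fold without array a of CD24hi and 146-fold without its array b. SERPINB5 (maspin), an epithelial serpin, differed from these: it averaged 4362 in MSP1 and 5669 in CD24hi (log2 -0.38 ± 0.32, adjusted p = 0.705).

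The transcription and splicing factors of epithelium had 6 of 15 members lower and 0 higher, beside 3.18% and 2.03% of all named genes. Of the 6, 1 lay in the completely named part of the array, and 9 of the 15 had names only through the authors' p-values. TP63, the master factor of basal epithelium, read 9.63 and 0.731 on the MSP1 arrays, against 1222 and 1406 on the CD24hi arrays, at least 41.0-fold lower (log2 -8.95 ± 1.13, adjusted p = 0.0227). Its 5 probe sets ran from -8.95 to -0.89. ESRP1, an epithelial splicing regulator, had 4.76 and 1.28 in MSP1, against 1224 and 1162 in CD24hi, at least 37.3-fold lower (adjusted p = 0.0075). Other members did not pass the test: TFAP2A, an ectodermal factor, averaged 707.5 in MSP1 and 1841 in CD24hi (adjusted p = 0.146), and SOX9 had 437 and 432 in MSP1 and 919 and 444 in CD24hi (log2 -0.55 ± 0.44, adjusted p = 0.684).

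Promoter windows of the genes with the widest changes were read from RefSeq (GRCh38.p14), from 250 bases before to 50 bases after the start site, because ZEB1 is known to bind the E-box letters CAGGTG, searched on both strands (CACCTG on the other). Of 27305 genes with a window, 24.1% held these letters. Of the 12 widest falls 7 had a window and 5 of these held them (LAMA3, CD24, KRT5, ITGB6 and S100A14), and of the 12 widest rises 10 had a window and 0 held them. Of the epithelial lists, 9 of 16 adhesion genes with a window, 5 of 7 basal keratin and hemidesmosome genes, 9 of 15 epidermal genes, 3 of 6 simple keratin and luminal genes and 2 of 7 transcription and splicing factors held the letters. Of the collagens 1 of 9 did and of the matrix glycoproteins 1 of 25. Lists outside epithelium could also be high, with 3 of 4 ERBB genes, 3 of 6 IGF binding proteins and 6 of 15 G protein signalling genes. A match describes letters only and is no site. The windows of 3 falls are shown with the letters in capitals, at base -130 for KRT5 (chr12:52520345-52520644, minus strand), -73 for LAMA3 (chr18:23872770-23873069, plus strand) and -14 for S100A14 (chr1:153616276-153616575, minus strand), beside PTX3, a rise without them (chr3:157436600-157436899, plus strand).
KRT5: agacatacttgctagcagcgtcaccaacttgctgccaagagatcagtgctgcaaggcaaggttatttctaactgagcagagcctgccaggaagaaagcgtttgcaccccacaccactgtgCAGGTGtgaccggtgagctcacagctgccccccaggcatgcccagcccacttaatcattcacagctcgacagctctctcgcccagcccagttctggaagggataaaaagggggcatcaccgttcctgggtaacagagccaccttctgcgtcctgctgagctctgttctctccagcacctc
LAMA3: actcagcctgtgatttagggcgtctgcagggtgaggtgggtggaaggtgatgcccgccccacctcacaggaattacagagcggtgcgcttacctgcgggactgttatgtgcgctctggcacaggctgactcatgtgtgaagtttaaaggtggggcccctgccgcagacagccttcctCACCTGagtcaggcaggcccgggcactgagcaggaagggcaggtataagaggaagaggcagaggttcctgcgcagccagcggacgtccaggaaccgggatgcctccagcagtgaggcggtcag
S100A14: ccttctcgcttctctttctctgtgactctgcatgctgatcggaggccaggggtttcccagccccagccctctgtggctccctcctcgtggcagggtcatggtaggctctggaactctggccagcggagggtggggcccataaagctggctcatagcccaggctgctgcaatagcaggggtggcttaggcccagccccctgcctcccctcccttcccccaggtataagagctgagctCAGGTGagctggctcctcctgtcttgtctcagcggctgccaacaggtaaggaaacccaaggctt
PTX3: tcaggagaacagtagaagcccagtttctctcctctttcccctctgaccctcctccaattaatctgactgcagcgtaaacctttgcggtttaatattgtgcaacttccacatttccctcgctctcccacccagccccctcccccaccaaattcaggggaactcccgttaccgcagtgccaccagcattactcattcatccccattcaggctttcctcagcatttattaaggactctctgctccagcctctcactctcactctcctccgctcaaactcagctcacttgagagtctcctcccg

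Of 11 measured transcription factors that drive or mark the epithelial-mesenchymal transition, 6 rose and 1 fell, beside 2.03% and 3.18% of all named genes. Names came only through the authors' p-values for 6 of the 11. PRRX1, a factor of limb mesenchyme, had 1117 and 1934 in MSP1, against 63.6 and 17.4 in CD24hi, 44.2-fold higher (adjusted p = 0.032) and 23.1-fold higher without CD24hi b. ZEB1, a repressor of CDH1, gave 397 and 453 in MSP1 and 3.64 and 11.4 in CD24hi, at least 13.3-fold higher (adjusted p = 0.0126). ZEB2, TWIST1 and FOXC2 rose as well, at least 4.61-fold, 7.06-fold and 14.6-fold. FOXQ1, a forkhead factor of epithelia, was lower, with 7.90 and 12.5 in MSP1 and 113 and 55.5 in CD24hi, at least 2.48-fold (log2 -2.99 ± 0.48, adjusted p = 0.0461). TWIST2 averaged 43.5 in MSP1 and 27.0 in CD24hi (log2 0.69 ± 0.37, adjusted p = 0.528). Of the 7 calls only ZEB2 lay in the completely named part.

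Of 16 measured collagen chains 7 rose and 0 fell, beside 2.03% of all named genes higher. Of the 7, 2 lay in the completely named part, and 6 of the 16 had names only through the authors' p-values. COL3A1, a fibrillar collagen of soft tissue, read 8531 and 6117 on the MSP1 arrays, against 26.0 and 38.1 on the CD24hi arrays, at least 226-fold higher (log2 7.84 ± 0.46, adjusted p = 0.00615). COL1A2, a chain of collagen I, had 7351 and 5937 in MSP1, against 75.1 and 111 in CD24hi, 72.4-fold higher (adjusted p = 0.00762). The 3 measured chains of collagen VI rose, COL6A1 29.6-fold, COL6A3 at least 33.5-fold and COL6A2 at least 13.3-fold, as did COL5A2 (9.88-fold) and COL8A1 (13.45-fold). COL1A1, the other chain of collagen I, had 7541 and 8021 in MSP1 and 1807 and 628 in CD24hi, and was not called (log2 2.87 ± 0.53, adjusted p = 0.0685). Its difference was 12.4-fold without array a of CD24hi and 4.30-fold without its array b. COL7A1, the anchoring fibril collagen of basement membrane, averaged 1027 in MSP1 and 688 in CD24hi (log2 0.58 ± 0.53, adjusted p = 0.729). On their brightest named probe sets 5 collagens were dim in both groups, and probe sets without a name were not read.

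Of 33 measured matrix glycoproteins and proteoglycans 8 rose and 1 fell, beside 2.03% and 3.18% of all named genes. FBLN5, an elastic fibre protein, read 7674 and 7884 on the MSP1 arrays, against 35.3 and 38.7 on the CD24hi arrays, 210.5-fold higher (log2 7.72 ± 0.31), with the lowest adjusted p of the comparison (0.00389). NID1, a basement membrane linker, had 2161 and 1975 in MSP1, against 18.1 and 18.8 in CD24hi, at least 64.6-fold higher (adjusted p = 0.00615), with its 3 probe sets from 1.78 to 6.81. FBN1, the fibrillin of microfibrils, gave 4442 and 6219 in MSP1, against 206 and 56.7 in CD24hi, 48.6-fold higher (adjusted p = 0.0174), or 92.7-fold without array a of CD24hi and 25.5-fold without its array b. The fall was in MFAP5, another microfibril protein, with 9.88 and 13.1 in MSP1 and 916 and 483 in CD24hi, at least 20.8-fold lower (log2 -5.87 ± 0.45, adjusted p = 0.0075). Several matrix genes were bright in both groups without a call. SPARC averaged 5492 in MSP1 and 2745 in CD24hi (log2 1.00 ± 0.33, adjusted p = 0.27), and THBS1 averaged 4141 in MSP1 and 4266 in CD24hi. DCN (decorin) averaged 1114 in MSP1 and 929 in CD24hi by its brightest probe set, while its 5 probe sets ran from 0.26 to 7.93.

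In matrix processing, PCOLCE, which aids the cutting of procollagen, read 1514 and 1557 on the MSP1 arrays, against 4.84 and 23.1 on the CD24hi arrays, at least 48.0-fold higher (log2 7.18 ± 0.75, adjusted p = 0.0149). P4HA3, a subunit of prolyl 4-hydroxylase, had 201 and 208 in MSP1, against 13.6 and 30.7 in CD24hi, at least 6.39-fold higher (adjusted p = 0.03). P3H2, a prolyl 3-hydroxylase of basement membrane collagen, went the other way, with 36.0 and 31.4 in MSP1 and 2476 and 1206 in CD24hi, 51.5-fold lower (adjusted p = 0.0132). These were the 2 rises and 1 fall among 12 measured members. Of 16 proteases and inhibitors MMP19, a matrix metalloproteinase, was higher, with 466 and 480 in MSP1 and 49.5 and 49.99 in CD24hi, 9.51-fold (adjusted p = 0.0126). MMP9, a gelatinase, was lower, with 36.3 and 27.4 in MSP1 and 1022 and 295 in CD24hi, at least 17.2-fold (adjusted p = 0.0443), or 9.22-fold without array a of CD24hi and 31.95-fold without its array b. TIMP1, an inhibitor of these enzymes, averaged 9819 in MSP1 and 5876 in CD24hi and was not called (log2 0.74 ± 0.34, adjusted p = 0.438).

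Most classical mesenchymal markers did not pass the test. Of 20 genes of mesenchymal cytoskeleton and adhesion, 1 rose and 1 fell. THY1 (CD90), a surface glycoprotein of fibroblasts, read 1871 and 1980 on the MSP1 arrays, against 239 and 344 on the CD24hi arrays, 6.72-fold higher (log2 2.75 ± 0.37, adjusted p = 0.028). L1CAM, a neural adhesion molecule, had 46.6 and 59.8 in MSP1, against 783 and 501 in CD24hi, 11.8-fold lower (adjusted p = 0.0268). VIM, the intermediate filament vimentin, gave 8801 and 8002 in MSP1 and 7893 and 5940 in CD24hi (log2 0.29 ± 0.35, adjusted p = 0.803), so its signal was high in the epithelial fraction as well. CDH2, N-cadherin, had 588 and 903 in MSP1 and 226 and 36.6 in CD24hi (log2 3.002 ± 0.85, adjusted p = 0.202), with a difference of 19.9-fold without array a of CD24hi and 3.22-fold without its array b. FN1, fibronectin, had 4487 and 3831 in MSP1 and 1660 and 580 in CD24hi (log2 2.08 ± 0.55, adjusted p = 0.174), 7.14-fold without array a of CD24hi and 2.50-fold without its array b. CD44, the hyaluronan receptor, had 1410 and 1877 in MSP1 and 4323 and 1762 in CD24hi, so the groups overlapped (log2 -0.76 ± 0.59, adjusted p = 0.675). Its log2 difference was -0.11 without CD24hi a and -1.41 without CD24hi b.

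Genes outside the matrix were also among the 12 widest rises. NR2F1 (COUP-TF1), an orphan nuclear receptor, read 2330 and 1968 on the MSP1 arrays, against 21.8 and 14.4 on the CD24hi arrays, at least 66.9-fold higher (log2 6.92 ± 0.35, adjusted p = 0.00615). PTX3, a secreted pentraxin of innate immunity, had 6654 and 6523 in MSP1, against 158 and 31.4 in CD24hi, 93.7-fold higher (adjusted p = 0.0185), or 206-fold without array a of CD24hi and 41.8-fold without its array b. ITGBL1, a secreted integrin-like protein, gave 2225 and 2008 in MSP1, against 15.9 and 5.64 in CD24hi, at least 66.0-fold higher (adjusted p = 0.0075). HHIP, an inhibitor of Hedgehog ligands, had 1727 and 1867 in MSP1, against 67.8 and 8.93 in CD24hi, at least 56.1-fold higher (adjusted p = 0.0426) and 26.5-fold higher without CD24hi b. RHOBTB3, an ATPase of vesicle transport, gave 2262 and 1273 in MSP1, against 22.1 and 16.8 in CD24hi, at least 53.03-fold higher (adjusted p = 0.0122), with its 5 probe sets from 1.72 to 7.56.

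G protein signalling had 6 of 20 measured members higher and 2 lower, beside 2.03% and 3.18% of all named genes. Names came only through the authors' p-values for 9 of the 20. RGS4, which shortens signals of G protein-coupled receptors, read 2047 and 1504 on the MSP1 arrays, against 29.6 and 6.17 on the CD24hi arrays, at least 54.8-fold higher (log2 7.02 ± 0.75, adjusted p = 0.016). ACKR1, a chemokine scavenger, had 695 and 950 in MSP1, against 17.7 and 1.70 in CD24hi, at least 25.4-fold higher (adjusted p = 0.0345). The other 4 rises were PTGFR, F2RL2, S1PR3 and PTGER2, receptors for prostaglandin F, thrombin, sphingosine 1-phosphate and prostaglandin E. ADGRG1, an adhesion receptor, was lower, with 41.8 and 47.0 in MSP1 and 1725 and 437 in CD24hi, 19.6-fold (adjusted p = 0.0406), or 9.85-fold without array a of CD24hi and 38.9-fold without its array b. BDKRB2, the bradykinin receptor, was lower too, with 3.73 and 2.58 in MSP1 and 267 and 105 in CD24hi, at least 5.23-fold (adjusted p = 0.0111), or 3.28-fold without array a of CD24hi and 8.34-fold without its array b. Of these 8 calls 7 had names only through the authors' calls, RGS4 being the other.

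Secreted growth factors and their receptors changed in a few members. CCN2, a matricellular factor, read 6668 and 5979 on the MSP1 arrays, against 658 and 426 on the CD24hi arrays, 11.9-fold higher (log2 3.58 ± 0.36, adjusted p = 0.0132). PDGFC, a platelet-derived growth factor, had 885 and 1022 in MSP1, against 181 and 217 in CD24hi, 4.80-fold higher (adjusted p = 0.0345). INHBA, the activin A subunit, had 24.1 and 42.6 in MSP1, against 1870 and 909 in CD24hi, 40.7-fold lower (adjusted p = 0.0135), though its 3 probe sets ran from -5.35 to -0.05. These were the 2 rises and 1 fall of 12 members. Among 12 growth factor receptors of mesenchyme 1 rose and 0 fell, PDGFRL, a receptor-like protein, with 404 and 243 in MSP1 and 2.20 and 2.67 in CD24hi, at least 9.79-fold higher (adjusted p = 0.00762). AXL and MET, receptor kinases, averaged 2519 and 2194 in MSP1 and 2152 and 3194 in CD24hi, and neither was called. Of 6 ERBB genes 2 fell: NRG1 (neuregulin), with 112 and 86.0 in MSP1 and 861 and 1316 in CD24hi, 10.8-fold (adjusted p = 0.024), and ERBB3, its receptor, with 9.54 and 8.64 in MSP1 and 195 and 131 in CD24hi, at least 4.999-fold (adjusted p = 0.0147). EGFR averaged 1581 in MSP1 and 2587 in CD24hi (log2 -0.71 ± 0.68, adjusted p = 0.745).

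Members of the TGF-beta and BMP pathways moved both ways, with 3 of 16 higher and 1 lower. LTBP1, which holds latent TGF-beta in the matrix, read 1595 and 3065 on the MSP1 arrays, against 126 and 55.1 on the CD24hi arrays, 26.5-fold higher (log2 4.73 ± 0.61, adjusted p = 0.024), or 40.2-fold without array a of CD24hi and 17.5-fold without its array b. Its 4 probe sets ran from -0.63 to 4.96. TGFBR3, a TGF-beta co-receptor, had 303 and 261 in MSP1, against 30.8 and 13.9 in CD24hi, at least 8.79-fold higher (adjusted p = 0.0278). FST, the activin-binding follistatin, gave 67.4 and 87.8 in MSP1, against 8179 and 1796 in CD24hi, 49.8-fold lower (adjusted p = 0.024), or 23.4-fold without array a of CD24hi and 106-fold without its array b. ID2, a BMP target, was the other rise. SMAD7, a feedback inhibitor, averaged 98.2 in MSP1 and 92.6 in CD24hi (log2 0.08 ± 0.36, adjusted p = 0.958).

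The calls among Wnt and Notch genes were falls. SFRP1, a secreted Wnt antagonist, read 16.1 and 17.9 on the MSP1 arrays, against 2426 and 1401 on the CD24hi arrays, at least 57.6-fold lower (log2 -6.76 ± 0.44, adjusted p = 0.00659), and was the 1 call among 6 antagonists. Of 12 Wnt ligands, receptors and feedback targets 2 fell and 0 rose: FZD3, a receptor, with 17.2 and 27.9 in MSP1 and 286 and 204 in CD24hi, at least 7.56-fold (adjusted p = 0.0185), and RNF43, a feedback ligase, with 2.35 and 2.24 in MSP1 and 105 and 74.9 in CD24hi, at least 2.77-fold (adjusted p = 0.0462). AXIN2, another feedback target, stood at least 2.03-fold higher in MSP1 and was not called. Both MSP1 arrays lay above both CD24hi arrays for 5 of the 12 Wnt genes and below them for 7. Over all named genes those shares were 21.6% and 26%. The Notch ligands JAG2 and DLL1 fell as well. JAG2 had 39.5 and 25.8 in MSP1, against 941 and 487 in CD24hi, at least 21.1-fold lower (adjusted p = 0.0227). DLL1 had 42.1 and 31.8 in MSP1, against 422 and 213 in CD24hi, 8.19-fold lower (adjusted p = 0.0337). With HHIP they were the 3 calls of 10 Notch and Hedgehog genes. NOTCH2, a receptor, averaged 2456 in MSP1 and 1758 in CD24hi (log2 0.48 ± 0.53, adjusted p = 0.784).

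Among 15 cytokines and chemokines 4 fell and 1 rose. IL1A, an epithelial alarmin, read 0.739 and 1.48 on the MSP1 arrays, against 650 and 1192 on the CD24hi arrays, at least 27.5-fold lower (log2 -9.72 ± 0.59, adjusted p = 0.00615). IL1B had 31.1 and 8.94 in MSP1, against 627 and 316 in CD24hi, at least 13.9-fold lower (adjusted p = 0.0388). TSLP, a cytokine of barrier tissues, rose, with 523 and 387 in MSP1 and 15.9 and 31.2 in CD24hi, at least 14.1-fold (adjusted p = 0.0132). The other falls were IL1RN, the antagonist of the same receptor as IL1A, and TNFSF10 (TRAIL). The complement component C3 had 30.9 and 11.8 in MSP1, against 599 and 424 in CD24hi, at least 15.7-fold lower (adjusted p = 0.0468). Interferon response genes held 1 rise and 1 fall among 18: IFI44L, with 390 and 91.2 in MSP1 and 0.98 and 1.74 in CD24hi, at least 5.89-fold higher (adjusted p = 0.0345), and OAS1, with 1.61 and 0.998 in MSP1 and 34.6 and 36.0 in CD24hi, at least 1.10-fold lower (adjusted p = 0.0162). The IFI44L bound was 2.85-fold without MSP1 a and 12.2-fold without MSP1 b.

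Other calls concerned the cell cycle, metabolism and transport. CDKN2C, an inhibitor of cyclin D kinases, read 1285 and 1546 on the MSP1 arrays, against 174 and 210 on the CD24hi arrays, 7.39-fold higher (log2 2.89 ± 0.36, adjusted p = 0.0227). CCND2, cyclin D2, had 134 and 145 in MSP1, against 1258 and 3646 in CD24hi, 15.3-fold lower (adjusted p = 0.0341), or 26.1-fold without array a of CD24hi and 9.02-fold without its array b. NDRG1, a hypoxia-responsive gene, had 274 and 272 in MSP1, against 2837 and 6355 in CD24hi, 15.6-fold lower (adjusted p = 0.0179), and CA9, a carbonic anhydrase that hypoxia induces, was at least 4.58-fold lower (adjusted p = 0.0439). They were the 2 calls among 17 hypoxia and glycolysis genes, where the glycolytic enzyme LDHA averaged 8765 in MSP1 and 9599 in CD24hi and was not called (adjusted p = 0.923). GADD45B, a stress-induced gene, rose 6.02-fold (1625 and 1304 in MSP1, 243 and 240 in CD24hi, adjusted p = 0.0221), and CYP1B1, an estrogen-metabolising oxidase, 6.49-fold (1017 and 635 in MSP1, 115 and 134 in CD24hi, adjusted p = 0.0453). IGFBP4, an IGF carrier, had 3147 and 3642 in MSP1, against 177 and 428 in CD24hi, 12.3-fold higher (adjusted p = 0.0264), or 7.91-fold without array a of CD24hi and 19.1-fold without its array b. SLC7A2, a cationic amino acid transporter, was at least 9.47-fold higher, SLC1A3, a glutamate transporter, at least 13.4-fold lower, and CLCA2, a chloride channel regulator of epithelia, at least 42.0-fold lower. The CLCA2 bound was 27.5-fold without array a of CD24hi and 64.0-fold without its array b, and the 4 SLC1A3 probe sets ran from -5.48 to 0.51.

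Proliferation, energy and translation genes showed no calls, beside 1.7% of probe sets called in the completely named part. Lists this short can hold 0 calls at that share, so the counts do not set them apart. Of 25 DNA replication and mitosis genes 0 were called, with a median log2 change of 0.16, and PCNA, the replication clamp, read 4610 and 4806 on the MSP1 arrays and 4345 and 3670 on the CD24hi arrays (log2 0.24 ± 0.31, adjusted p = 0.825). The same count of 0 held for 20 genes of oxidative phosphorylation (median -0.09), for 21 ribosomal protein genes (median -0.01) and for 16 genes of sterol and fatty acid synthesis (median 0.22). It held also for 10 genes of antigen processing and presentation (median -0.70) and for 12 skeletal and adipose lineage genes (median 0.34). Of these 12, 8 were dim in both groups on their brightest named probe sets. Over the 547 different genes measured in the 38 lists, 125 were called, 51 higher and 74 lower, beside 5.21% of all 8926 named genes. The lists were chosen with earlier results of these data known. Some members had names only through the authors' p-values, so the share in the lists is raised by both choices. With 2 arrays per group, a missed threshold does not show that levels were equal.

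**Figure D2:**
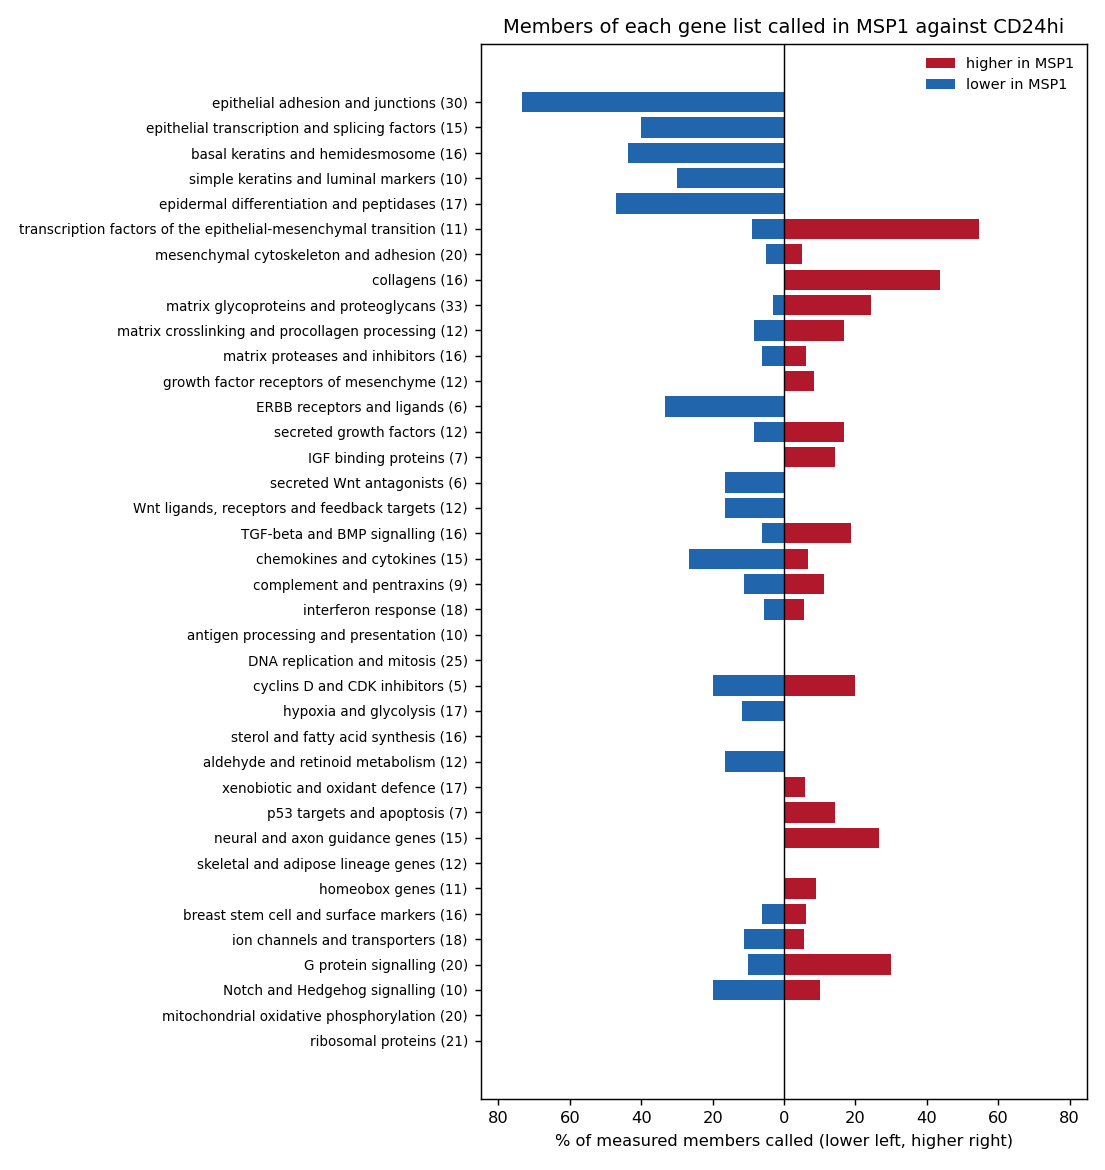
Percentage of the measured members of each gene list (number in brackets) that were called lower, bars to the left, or higher, bars to the right, in MSP1 against CD24hi at an adjusted p under 0.05. In the list of epithelial adhesion and junctions 22 of 30 members were called lower, and the 5 uppermost lists, all epithelial, hold calls to the left only. Over all named genes 3.18% were called lower and 2.03% higher.

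MSP2 and MSP3 gave the measure of what these changes share. The mean of MSP2 and MSP3 against CD24hi had 1422 probe sets called (2.6%), 729 higher (1.33%) and 693 lower (1.27%). Among named genes 662 were called (7.42%), 284 higher (3.18%) and 378 lower (4.23%). This comparison and that of MSP1 share the CD24hi arrays, so their values are set side by side only. For FBLN5 the mean signal was 7778 in MSP1 and 7718 in MSP2 and MSP3 together, for FBN1 5256 and 5042, for COL1A2 6606 and 7095, for ZEB1 424 and 452, and for EPCAM 13.7 and 14.5. The test of the difference itself set MSP1 against the mean of MSP2 and MSP3 on the 6 MSP arrays. It called 0 of 54613 probe sets (0%) with limma, and the lowest adjusted p was 0.355. An unadjusted p under 0.05 was found for 2954 probe sets (5.41%). No gene is therefore called as gained or lost by MSP1 beyond the shared shift, and the genes that follow are described by their values and unadjusted p.

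Both MSP1 arrays lay outside the range of the 4 MSP2 and MSP3 arrays, with a difference of at least 2-fold after dim levels were raised to 32, for 142 probe sets (0.26%), 21 above (0.0385%) and 121 below (0.222%). Among named genes these were 8 above (0.0896%) and 35 below (0.392%). The genes below were picked by this separation on the same 6 MSP arrays that give their unadjusted p. Those p-values are therefore low by selection and give no support of their own. Of the 35 below, 13 were called lower and 3 higher in MSP1 than in CD24hi, and 19 were not called. By list, those below held 2 genes of epithelial adhesion (DSP and DSC3), 2 of basal keratins and hemidesmosome (KRT5 and LAMA3), 2 secreted growth factors (INHBA and IGF2), 2 genes of G protein signalling (F2RL2 and ADGRG1), 1 matrix glycoprotein (VCAN), 1 procollagen enzyme (P3H2) and 1 surface marker (CD24).

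**Figure D3:**
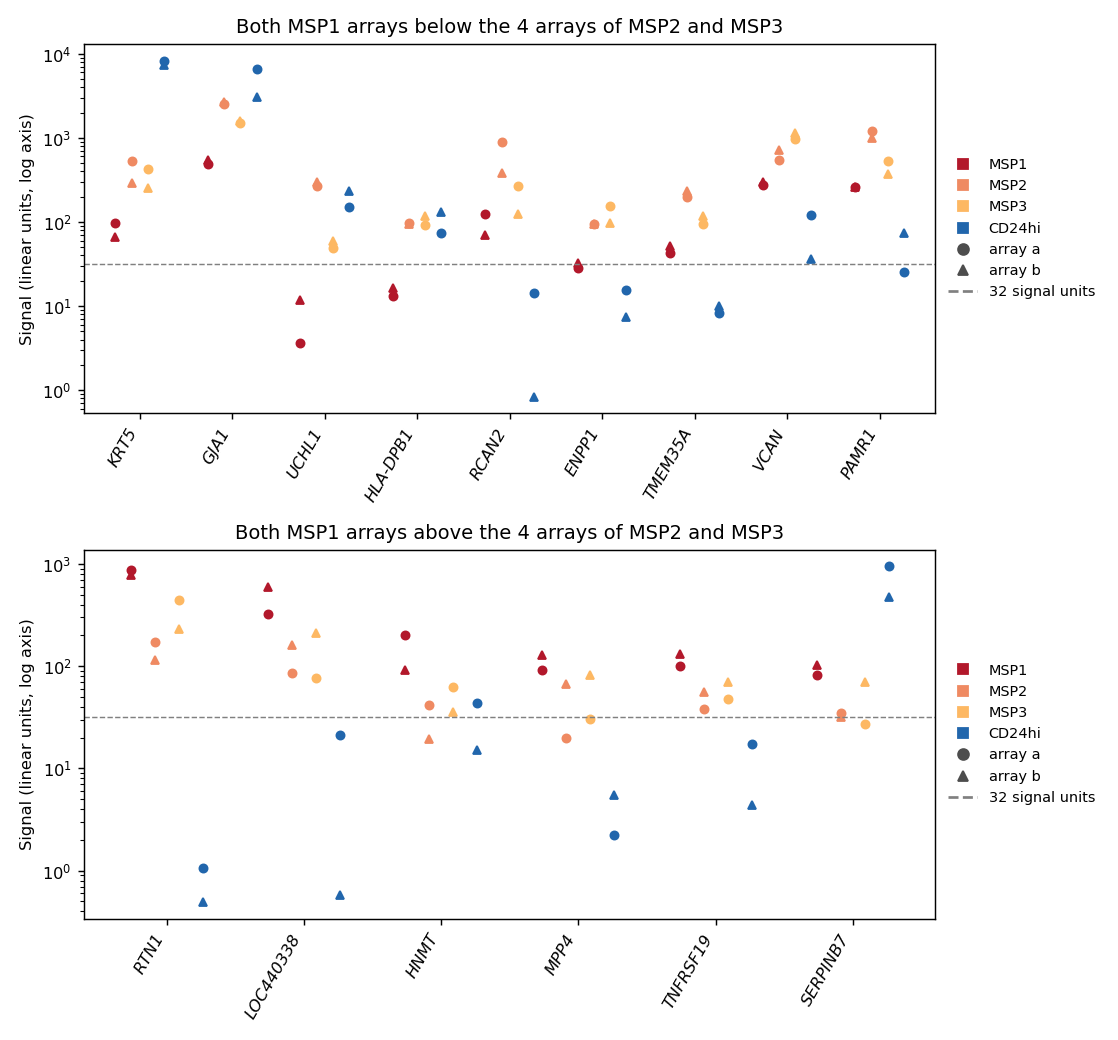
Signal (log axis, linear signal units) on all 8 arrays of 9 genes with both MSP1 arrays below the 4 MSP2 and MSP3 arrays (upper panel) and 6 genes with both above (lower panel), with circles for array a, triangles for array b and a dashed line at 32 units. For HLA-DPB1 the MSP1 arrays lie at 13.2 and 16.5 and all other arrays at 73.1 or above, while for RTN1 the MSP1 arrays lie at 873 and 781 and both CD24hi arrays near 1.

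Genes lower in MSP1 than in CD24hi, and lower again than in MSP2 and MSP3, included junction and basal genes. GJA1, the gap junction protein connexin 43, read 485 and 547 on the MSP1 arrays, 2514 and 2657 on MSP2, 1484 and 1573 on MSP3, and 6645 and 3028 on CD24hi. MSP1 was 3.86-fold below the mean of MSP2 and MSP3 (log2 -1.95 ± 0.22, unadjusted p = 0.000448) and 8.71-fold below CD24hi (log2 -3.12 ± 0.45, adjusted p = 0.0332). The mean of MSP2 and MSP3 differed from CD24hi by -1.17 and was not called. KRT5 gave 98.3 and 66.1 in MSP1, 528 and 289 in MSP2, 423 and 252 in MSP3, and 8243 and 7244 in CD24hi. MSP1 was 4.43-fold below the other MSP groups (log2 -2.15 ± 0.42, unadjusted p = 0.0046), which themselves lay far below CD24hi.

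HLA-DPB1, the beta chain of an MHC class II molecule, read 13.2 and 16.5 on the MSP1 arrays, 96.3 and 93.9 on MSP2, 92.9 and 118 on MSP3, and 73.1 and 132 on CD24hi. It was low in MSP1 alone, at least 3.12-fold below MSP2 and MSP3 (log2 -2.76 ± 0.25, unadjusted p = 0.000168) and at least 3.07-fold below CD24hi (log2 -2.74 ± 0.41, adjusted p = 0.0385). CD74, the class II invariant chain, and CIITA, the class II transactivator, were dim in MSP1 and in CD24hi on their brightest named probe sets. Any probe set of these genes without a name was not read, so this does not show that their RNA was absent. UCHL1, a deubiquitinase of neurons, had 3.66 and 11.8 in MSP1, 264 and 298 in MSP2, 48.7 and 59.95 in MSP3, and 150 and 234 in CD24hi (log2 -4.23 ± 0.53 against MSP2 and MSP3, unadjusted p = 0.000698). Against CD24hi it was at least 5.86-fold lower (adjusted p = 0.0227), but its other probe set changed by 0.86.

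Other epithelial genes were shown after their values were seen. DSC3, a desmosomal cadherin, read 22.6 and 21.5 on the MSP1 arrays, 130 and 103 on MSP2, 57.9 and 55.6 on MSP3, and 2035 and 724 on CD24hi (log2 -1.88 ± 0.24 against MSP2 and MSP3, unadjusted p = 0.000698). Its bound against CD24hi, at least 37.9-fold, was 22.6-fold without array a of CD24hi and 63.6-fold without its array b. DSP, the desmosome linker desmoplakin, had 125 and 204 in MSP1, 221 and 536 in MSP2, 525 and 646 in MSP3, and 8765 and 4664 in CD24hi (log2 -1.48 ± 0.47, unadjusted p = 0.0283). RAB38, a GTPase of vesicle traffic, had 69.2 and 75.8 in MSP1, 246 and 196 in MSP2, 151 and 173 in MSP3, and 1280 and 1881 in CD24hi (log2 -1.38 ± 0.24, unadjusted p = 0.00296). CD24 itself was dim in MSP1, with 87.3 and 129 in MSP2 and 89.4 and 95.8 in MSP3 (log2 -2.15 ± 0.35, unadjusted p = 0.00221). LAMA3 had 61.1 and 110 in MSP2 and 68.1 and 110 in MSP3, all above its MSP1 arrays (log2 -2.31 ± 0.39, unadjusted p = 0.00255). KRT8, EPCAM and CDH1 did not share this order: KRT8 read between 54.9 and 65.7 on all 6 MSP arrays, and EPCAM and CDH1 were dim on all of them.

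**Figure D4:**
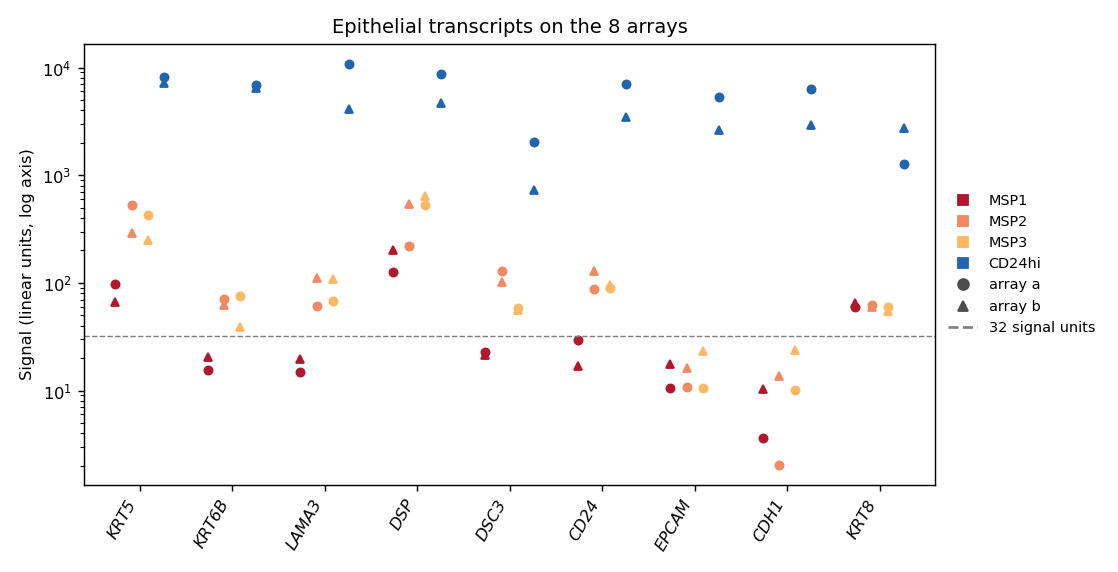
Signal (log axis, linear signal units) of 9 epithelial transcripts on all 8 arrays, with circles for array a, triangles for array b and a dashed line at 32 units; the genes were chosen after their values were seen. Both MSP1 arrays lie below all 4 MSP2 and MSP3 arrays for KRT5, KRT6B, LAMA3, DSP, DSC3 and CD24, and not for KRT8, EPCAM and CDH1.

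Genes that MSP2 and MSP3 gained more than MSP1 included matrix and growth factor genes. VCAN, the proteoglycan versican, read 272 and 295 on the MSP1 arrays, 550 and 717 on MSP2, 963 and 1149 on MSP3, and 122 and 36.3 on CD24hi. MSP1 was 2.87-fold below the mean of MSP2 and MSP3 (log2 -1.52 ± 0.25, unadjusted p = 0.00229) and was not called against CD24hi (adjusted p = 0.207), a difference of 7.79-fold without array a of CD24hi and 2.32-fold without its array b. ENPP1, which makes pyrophosphate outside the cell, had 28.2 and 32.6 in MSP1, 94.0 and 95.1 in MSP2, 154 and 95.9 in MSP3, and 15.7 and 7.38 in CD24hi (log2 -1.82 ± 0.30, unadjusted p = 0.00207). IGF2, insulin-like growth factor 2, had 71.3 and 73.8 in MSP1, 257 and 316 in MSP2, 110 and 134 in MSP3, and 25.2 and 21.3 in CD24hi (log2 -1.36 ± 0.24, unadjusted p = 0.0032); it was picked after its values were seen.

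RCAN2, a calcineurin inhibitor, read 125 and 69.1 on the MSP1 arrays, 897 and 380 on MSP2, 269 and 125 on MSP3, and 14.3 and 0.839 on CD24hi (log2 -1.82 ± 0.57, unadjusted p = 0.0267), so MSP1 a and MSP3 b were nearly level. TMEM35A, a chaperone of nicotinic receptors, had 42.2 and 52.3 in MSP1, 198 and 235 in MSP2, 93.3 and 117 in MSP3, and 8.17 and 10.1 in CD24hi (log2 -1.68 ± 0.26, unadjusted p = 0.00169). It was still called higher in MSP1 than in CD24hi, at least 1.47-fold (adjusted p = 0.0352). PAMR1, a secreted peptidase-domain protein, had 259 and 263 in MSP1, 1217 and 990 in MSP2, 529 and 373 in MSP3, and 25.4 and 74.2 in CD24hi (log2 -1.42 ± 0.27, unadjusted p = 0.00408). Against CD24hi it was not called (adjusted p = 0.104), 6.01-fold in all and 3.52-fold without CD24hi a. In TMEM35A, RCAN2 and PAMR1 MSP2 lay furthest from MSP1, and in VCAN MSP3 did.

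Few genes stood higher in MSP1 than in the other MSP groups. RTN1, a reticulon of the endoplasmic reticulum best known from neurons, read 873 and 781 on the MSP1 arrays, 171 and 114 on MSP2, 446 and 233 on MSP3, and 1.05 and 0.493 on CD24hi. MSP1 was 3.89-fold above the mean of MSP2 and MSP3 (log2 1.96 ± 0.38, unadjusted p = 0.0044) and at least 25.8-fold above CD24hi (log2 10.16 ± 0.54, adjusted p = 0.00615). Among 15 neural and axon guidance genes no other had both MSP1 arrays so far outside the rest, while 4 of the 15 (RTN1, NTN4, SEMA5A and SYT11) rose against CD24hi. HNMT, which inactivates histamine, had 203 and 90.9 in MSP1, 41.3 and 19.3 in MSP2, 62.2 and 35.3 in MSP3, and 43.6 and 15.2 in CD24hi (log2 1.90 ± 0.55 against MSP2 and MSP3, unadjusted p = 0.0204). Against CD24hi it was not called (adjusted p = 0.237), and its 4 probe sets ran from -0.42 to 2.40.

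TNFRSF19 (TROY), a receptor of the tumour necrosis factor family, read 101 and 130 on the MSP1 arrays, 37.8 and 56.2 on MSP2, 48.3 and 70.6 on MSP3, and 17.2 and 4.396 on CD24hi (log2 1.15 ± 0.33, unadjusted p = 0.019). MPP4, a scaffold protein of photoreceptor synapses, had 91.4 and 129 in MSP1, 19.8 and 66.8 in MSP2, 30.3 and 81.2 in MSP3, and 2.23 and 5.50 in CD24hi (log2 1.35 ± 0.69, unadjusted p = 0.111); it was called higher than in CD24hi (adjusted p = 0.0495). LOC440338, an uncharacterized locus, had 320 and 601 in MSP1, 85.1 and 159 in MSP2, 76.2 and 211 in MSP3, and 21.4 and 0.581 in CD24hi (log2 1.85 ± 0.59, unadjusted p = 0.0288). In TNFRSF19, MPP4 and LOC440338 array b lay above array a in every MSP group. In HNMT, RCAN2 and KRT5 array a lay above array b in every MSP group. SERPINB7, a serpin of skin and kidney, was the 1 gene lost less: it had 82.1 and 103 in MSP1, 34.7 and 31.9 in MSP2, 27.0 and 69.8 in MSP3, and 948 and 475 in CD24hi (log2 1.28 ± 0.45, unadjusted p = 0.0408).

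The authors' deposited table gives its own comparison of MSP1 with CD24hi. It lists 2466 of 16382 probe sets at a p-value at or under 0.05, 1238 with a positive and 1228 with a negative log2 fold change, and 2465 of these had the same sign here. The present test called 740 of them. Both comparisons concern the same arrays, so the shared signs are no independent evidence. Rows beyond the first 14644 array positions were listed by p-value, so 2466 of 16382 is not a rate over the array. In the authors' deposited table the log2 fold change was 7.65 for COL3A1, -8.97 for CDH1, -3.09 for GJA1 and 6.91 for RTN1. Over the 16382 probe sets, the slope of the authors' log2 fold change on the present difference was 0.53. The sizes are therefore not on the same scale throughout, and the reason was not tested. That table holds VIM at 0.74 with a p-value of 0.0451, FN1 at 2.07 with a p-value of 0.0207 and CDH2 at 2.64 with a p-value of 0.0593, none of which was called here. Whether its p-values are adjusted is not stated in its header.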

How the data were processed

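Total RNA of 8 HMLE samples was read on single-colour Affymetrix arrays, 2 arrays in each of 4 groups. The authors deposited linear intensity values per probe set, made with Affymetrix Expression Console per the submitters' processing notes; every array has the same trimmed mean, so they were scaled globally. The intensities were used as log2 values with no offset, since all deposited values used are above 0. The authors' deposited table gives log2 fold changes and p-values, for which the notes name limma; it also supplied the gene names.

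Here 54613 probe sets were fitted with limma 3.58.1 in R 4.3.3 (lmFit and eBayes, Benjamini-Hochberg adjustment over all probe sets). MSP1 against CD24hi, and the mean of MSP2 and MSP3 against CD24hi, came from 1 fit of 8 arrays. MSP1 against the mean of MSP2 and MSP3 came from the 6 MSP arrays. The named genes were ZEB1, ESRP1, CD24, CD44, VIM, FN1, CDH1 and CDH2; the 12 widest called rises and falls; up to 5 genes per class of departure from MSP2 and MSP3; and for each list the 2 widest called rises and falls or its brightest member. Some genes that this rule names are not reported here, and further genes were chosen after their values were seen. The members, lists and the limit of 32 were chosen with earlier results of these data known. The procedure was tested on simulated data. Alternatives covered offsets, filters, normalization, variance models, a replicate block and each array left out. The number of arrays limits the precision.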

Additional observations from a re-analysis of the deposited data

How the results depend on the processing

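Against 988 calls between MSP1 and CD24hi, an offset of 16 gave 2136, a mean signal of at least 32 gave 1949, a variance trend 1976, array weights per group 526, and the 4 arrays alone 0. Leaving out 1 array gave 0 to 552, with 0 without either MSP1 array. Raising dim signals, quantile normalization and median centring stayed within 1.5 times. Refitting the completely named positions, an alternative chosen after seeing the data, gave 209 calls, where the main fit called 249 in the same positions. For the mean of MSP2 and MSP3 against CD24hi, 1422 calls became 3154 with the offset, 2788 with the filter, 2822 with the trend, 549 with array weights, 768 with 6 arrays, and 496 to 980 with 1 array left out. MSP1 against the mean of MSP2 and MSP3 gave 0 calls under every alternative but raising signals under 32, which gave 2, and the same 2 departed from the shared shift. The 125 calls in the lists became 196 with the trend and 0 to 79 with 1 array left out. Of the 81 called among 100 named genes, 0 kept the call in the 4-array fit or without either MSP1 array, 43 to 47 without any other array, 48 with dim signals raised, 57 with the replicate block, 59 with array weights and 76 to 80 under the other alternatives. Small changes that turned sign with 1 array left out were B2M (-0.5312 to 0.0895), SCD (-0.5450 to 0.0948) and RPL7 (-0.2529 to 0.0348, and 0.0067 without MSP1 b), each positive without CD24hi a. The causes of these shifts were not tested.

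With arrays a and b as a replicate block, 572 probe sets were called between MSP1 and CD24hi. The deviations of a from b correlated at 0.72 to 0.85 among the MSP groups and at -0.46 to -0.35 between them and CD24hi, and the letters are no stated pairing. With the CD24hi letters crossed, also chosen after seeing the data, 939 were called.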
